A study of Mus musculus with 3 samples.

Results

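Mouse embryonic stem cells that carry human BRCA1 with the substitution M1652I, called MI, were compared as embryoid bodies with bodies of the same strain that carry the wild-type human gene, called WT. The comparison rests on 2 of the 3 arrays of the series, 1 for each genotype, and it was read across 18193 genes as the log2 signal of MI minus that of WT. The third array holds bodies with another BRCA1 substitution, called RQ, for which the labels and the design text give different residue numbers, and it is given here as a level only, since both mutants share the WT array as their control. All cells were of strain 129S7/SvEv Brd-Hprt b-m2, were freed of feeder cells on gelatin before the bodies were formed, and gave total RNA on day 7 (6 ug per array). The labels do not say whether the mouse Brca1 gene is intact in these cells and give no culture, clone or passage, so a difference between genotypes and a difference between 2 single preparations cannot be told apart, and no p-value can be given for any gene.

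BRCA1 helps to repair broken DNA by homologous recombination and to control the cell cycle, and its C-terminal BRCT repeats bind phosphorylated partner proteins. Embryoid bodies are clumps of stem cells that differentiate in suspension. Their outer cells become primitive endoderm, which forms an absorptive visceral layer rich in endocytic receptors and lysosomes, and a parietal layer that secretes laminin and type IV collagen. The inner cells leave the naive state, pass through a primed state like that of the epiblast, and later give rise to mesoderm, ectoderm and gut.

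The MI bodies carried much weaker signal for genes of endoderm and its basement membrane, and stronger signal for a small set of mesenchymal, calcium-binding and adhesion genes and for some genes of naive stem cells. The gene with the lowest difference was Srgn, the core protein of the proteoglycan serglycin, which read 11.43 on WT, 6.69 on MI and 6.94 on RQ. The gene with the highest was S100a6, a calcium-binding protein, which read 6.56 on WT, 10.36 on MI and 6.19 on RQ. Srgn was thus high on WT alone, and S100a6 was high on MI alone. Abundant genes were lower on MI in general, so every difference below was corrected for level with a smooth trend. After that step S100a6 was 3.98 higher on the log2 scale (15.8-fold) and Srgn stood at -4.48 (22.3-fold lower).

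A gene was counted where the mean of WT and MI reached the median of all probe sets (log2 6.31), which 12088 genes did. Of these, 82 were at least 2-fold higher on MI (0.678%) and 215 were at least 2-fold lower (1.78%). Lower genes thus outnumbered higher ones. Without the correction, 64 were higher (0.529%) and 311 lower (2.57%), and with each array centred on its median, 53 were higher and 382 lower. The corrected difference of all counted genes had a median of 0.01, and 95% of them lay between -0.88 and 0.62. This spread widened with level. It ran from -0.51 to 0.36 for the 5823 genes with a mean under 7 and from -1.38 to 1.16 for the 635 genes between 9 and 10. The share at least 2-fold lower likewise went from 0.223% under 7 to 6.30% between 9 and 10, and the share higher from 0.0687% to 2.83%. Shares over all counted genes, most of them dim, are thus below those at such levels. Counts in the lists below are to be set against both.

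**Figure D1:**
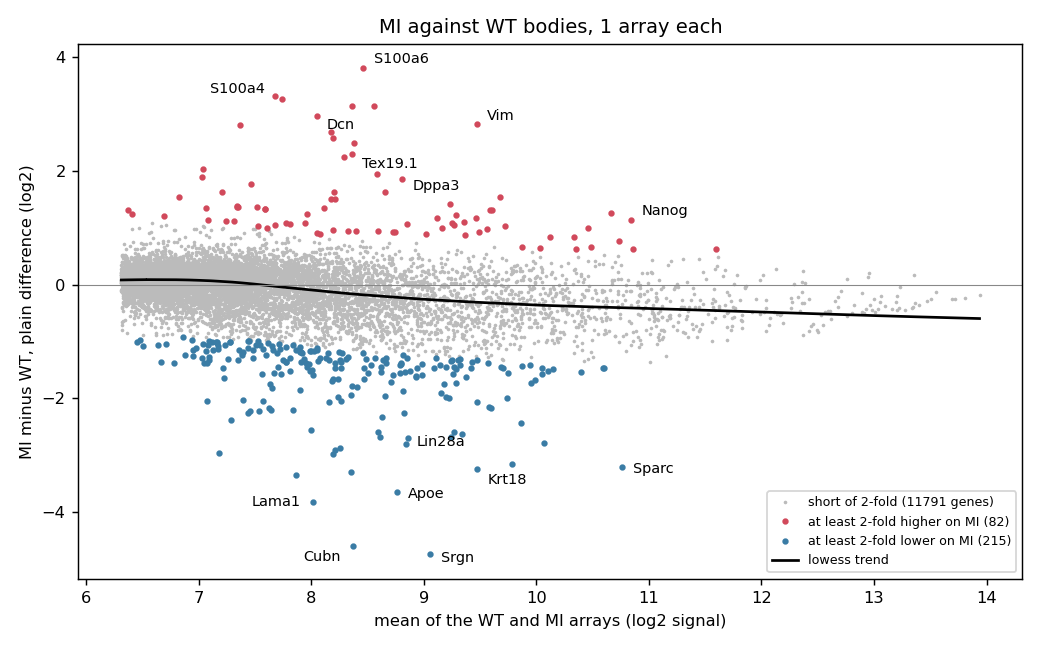
Each point is 1 of 12088 genes, with the mean log2 signal of the WT and MI arrays on the x axis and the plain log2 difference MI minus WT on the y axis, and the black line is the trend that was subtracted. The trend lies near 0 for dim genes and falls below it for bright ones, while the 82 higher genes (red) and 215 lower genes (blue) are counted by their distance from that line.

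Probe sets of the same gene gave a sense of measurement error within these arrays, though not of error between cultures. Among 4334 genes with more than 1 counted probe set, the pooled SD between probe sets of a gene was 0.29 on the corrected scale. Of the 82 higher genes, 47 had another counted probe set, and in 41 of these all others lay on the same side of 0. Of the 215 lower genes, 100 had another, and in 84 all others lay on the same side. In 9 of the higher genes, S100a4, Cd44, Vcam1, Emp1 and Usp18 among them, WT lay below the filter, and in 15 of the lower ones MI did, so these were counted through the array where they were high. The arrays themselves had nearly equal means (6.60 each) but a smaller SD on MI (1.06) than on WT (1.17) or RQ (1.17). The 18 probe sets for hybridization spikes, which are added in fixed amounts, had a median difference of -0.80 (-1.48 to -0.36) before correction and -0.70 after it. Some of these spikes thus read more than 2-fold lower on MI, and their part in the lower counts was not tested.

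**Figure D2:**
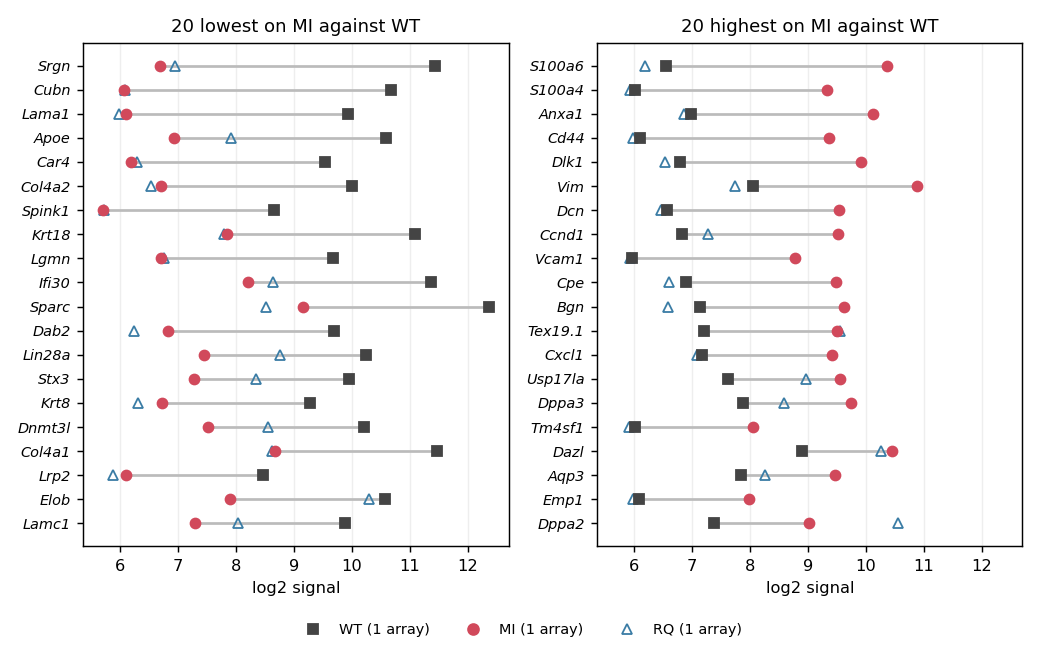
The log2 signal on the WT (square), MI (circle) and RQ (triangle) arrays is drawn for the 20 genes with the lowest and the 20 with the highest corrected difference, 1 array for each genotype. Srgn, Cubn and Lama1 read from 9.93 to 11.43 on WT and from 6.08 to 6.69 on MI, while S100a6, S100a4 and Cd44 read from 6.02 to 6.56 on WT and from 9.33 to 10.36 on MI.

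Basement membrane genes showed the lowest median of the lists examined. Among 17 counted genes of parietal endoderm and basement membrane, 10 were at least 2-fold lower on MI and 0 were higher. Over all counted genes the shares were 1.78% and 0.678%, and 5.16% and 1.79% for those with a mean between 8 and 9. The list median was -1.32. The alpha, beta and gamma chains that assemble into the laminin of the early embryo were all among the 10 lower genes. Lama1 read 9.93 on WT, 6.11 on MI and 5.98 on RQ, a corrected difference of -3.73. Lamb1 read 10.65, 8.02 and 8.08 (-2.33). Lamc1 read 9.89, 7.30 and 8.04 (-2.39), although its other counted probe set gave -0.40. Each chain was highest on WT, and Lama1 had the lowest difference of the 3. In bulk RNA of this kind, fewer endoderm cells and less RNA per endoderm cell cannot be told apart.

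Type IV collagen, the network former of basement membranes, showed the same order of arrays. Col4a1 read 11.46 on WT, 8.68 on MI and 8.62 on RQ (-2.42), and its partner chain Col4a2 read 10.001, 6.70 and 6.54 (-3.14). In RefSeq (GRCm38.p6) this pair lies head to head on chromosome 8, with starts 21 bases apart on opposite strands, and it is known for its bidirectional promoter. Sparc, a collagen-binding matrix protein made in bulk by parietal endoderm, read 12.37, 9.16 and 8.52 (-2.81), with its other probe sets between -3.04 and -0.26. The 4 further members were lower by smaller amounts: Col18a1 (-1.52), Nid2 (-1.35), the fibulin Fbln1 (-1.32) and the heparan sulphate proteoglycan Hspg2 (-1.28). Fbln1 gave only -0.21 at its other counted probe set.

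Enzymes that modify and fold collagen in the endoplasmic reticulum were also lower. On this list 4 of 13 counted genes were at least 2-fold lower and 0 were higher, against 1.78% and 0.678% of all counted genes. The list median was -0.54. Plod2, which hydroxylates lysines of collagen, read 11.08 on WT, 8.65 on MI and 9.98 on RQ (-2.08). Serpinh1, the collagen chaperone HSP47, read 10.73, 8.74 and 8.01 (-1.65). The prolyl hydroxylase subunit P4ha1 (-1.15) and the prolyl 3-hydroxylation partner Crtap (-1.07) made up the count. All 4 were highest on WT. The enhancer of procollagen C-proteinase, Pcolce, went the other way without reaching the limit, at 6.67 on WT and 7.51 on MI (0.78).

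The absorptive machinery of visceral endoderm was low on MI as well. Cubn (cubilin) and Lrp2 (megalin) form the receptor complex that takes up proteins at the apical membrane, and Dab2 is the adaptor that links such receptors to clathrin. Cubn read 10.67 on WT, 6.08 on MI and 6.09 on RQ (-4.43, or 21.6-fold), and its second probe set gave -3.63. Lrp2 read 8.47, 6.10 and 5.89 (-2.42), and Dab2 read 9.69, 6.82 and 6.25 (-2.72). For Lrp2 and Cubn the MI signal lay below the level filter, so these sizes are held down by background signal. Dab2 gave -0.58 at its probe set that reads a single transcript. The megalin chaperone Lrpap1 (-1.62, with other probe sets from -2.38 to 0.28) and the apical sialomucin Podxl (-1.46) were lower too. In total 5 of 13 counted members of the list were lower and 1 was higher, against 1.78% and 0.678% of all counted genes. The higher gene was the X-linked homeobox gene Rhox5, at 9.54 on WT, 10.20 on MI and 7.997 on RQ (1.01).

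The secreted yolk sac carriers gave a different picture, because most were dim on every array. Afp, the fetal carrier alpha-fetoprotein, read 7.10 on WT, 7.34 on MI and 6.96 on RQ, and the thyroxine carrier Ttr read 6.55, 6.62 and 6.41. Of 8 counted members only the lipoprotein Apoe passed the limit, at 10.58, 6.94 and 7.91 (-3.42), and the list median was -0.09. Among endoderm transcription factors 0 of 8 counted were past the limit in either direction at the probe set used here. Gata6 read 7.04 on WT and 7.08 on MI (-0.03), but its other probe sets gave -0.64 and, below the filter, -1.16. Sox17 read 7.05 and 7.06 (-0.06), while its second counted probe set read 7.14 on WT and 5.67 on MI (-1.56). Probe sets of both genes thus disagreed. Gata4 lay below the filter at 6.18 and 6.12, and Sall4, which stem cells also express, was the one bright member, at 10.24 and 9.88. On WT many matrix and endocytic genes of endoderm were thus bright, while Afp, Ttr, Gata6 and Sox17 were dim.

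Lysosomal proteases and hydrolases, which digest what the endoderm absorbs, were lower as a group. Of 26 counted members 7 were at least 2-fold lower and 0 were higher, against 1.78% and 0.678% of all counted genes. On the list 23 members lay below 0, and the list median was -0.64. Lgmn, the asparagine-specific protease legumain, read 9.68 on WT, 6.70 on MI and 6.76 on RQ (-2.85). Ifi30, a lysosomal thiol reductase, read 11.36, 8.21 and 8.63 (-2.81). Both were about as low on RQ as on MI. Ctsh (-2.22), Ctsa (-2.02), Ctsz (-1.44), the hexosaminidase subunit Hexa (-1.32) and Ctsc (-1.23) were the remaining members past the limit. Of 19 counted genes of the lysosomal membrane and proton pump 2 were lower, the pump subunit Atp6v0b (-1.19) and the membrane protein Scarb2 (-1.18), with a median of -0.35.

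Simple epithelial keratins and junction genes, which mark the outer epithelium, were low in much the same way. Among 21 counted members 5 were at least 2-fold lower and 0 were higher, against 1.78% and 0.678% of all counted genes. Only 1 member lay above 0, and the list median was -0.46. Krt18 read 11.10 on WT, 7.85 on MI and 7.79 on RQ (-2.93). Its filament partner Krt8 read 9.28, 6.72 and 6.30 (-2.47), with other probe sets from -2.84 to -1.96. These keratin genes lie 23874 bases apart, start to start, on chromosome 15. The claudins Cldn6 (8.74 on WT and 6.54 on MI, -2.18) and Cldn4 (-1.32), which seal tight junctions, were lower. Epcam, an epithelial adhesion molecule, was lower at the probe set used here (10.18 on WT, 8.21 on MI and 9.31 on RQ, -1.69), but its other counted probe set gave 0.30. The connexin Gja1 read 9.29, 7.25 and 5.78 (-1.89), and Gjc1 was higher, at 7.60 on WT and 8.50 on MI (1.01).

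Several of the lowest genes encode neither matrix nor lysosomal proteins but were likewise bright on WT alone. Car4, a membrane-bound carbonic anhydrase, read 9.53 on WT, 6.19 on MI and 6.29 on RQ (-3.27). Spink1, a secreted trypsin inhibitor, read 8.66, 5.70 and 5.72 (-3.02), and the cystatin Cst3 read 10.04, 8.48 and 8.31 (-1.28). Gpx3, a secreted glutathione peroxidase, read 9.19, 7.12 and 6.82 (-1.95). Car4 and Spink1 lay below the filter on MI. Of 18 counted genes of lipid transport and metabolism in endoderm 2 were lower, Apoe and Car4, and 2 were higher, the water and glycerol channel Aqp3 (7.85, 9.47 and 8.27, 1.83) and the fatty acid carrier Fabp5 (10.35, 11.11 and 10.73, 1.17). A different order was seen for Stx3, a syntaxin of apical membranes (9.96, 7.27 and 8.35), and for Elob, a subunit of elongin (10.58, 7.91 and 10.29), where RQ stayed above MI. Elob was low on MI at both of its counted probe sets (-2.39 and -2.90).

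**Figure D3:**
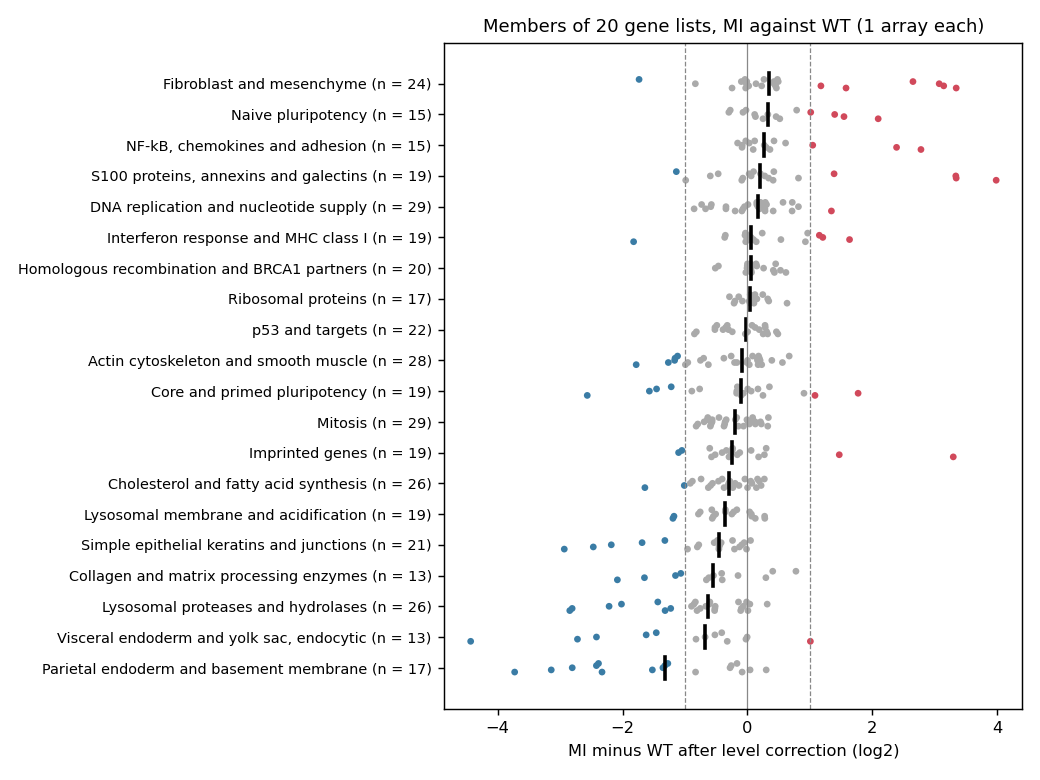
Each point is 1 counted gene of 20 gene lists, placed at its level-corrected log2 difference MI minus WT (1 array each), with the number of genes beside the list name, a black bar at the list median and dashed lines at the 2-fold limit. Medians run from -1.32 for basement membrane genes to 0.34 for fibroblast and mesenchyme genes, and in the latter list 6 genes stand to the right of the dashed line.

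The genes that were high on MI and low on both other arrays were headed by members of the S100 and annexin families. S100 proteins are small calcium sensors, and annexins bind membranes when calcium is present. S100a4, long used as a fibroblast marker, read 6.02 on WT, 9.33 on MI and 5.93 on RQ (3.34). S100a6 and S100a4 are neighbours on chromosome 3, with starts 9124 bases apart, yet S100a5, which lies between them, stayed at background (5.29, 5.31 and 5.27), as did S100a3 (5.45, 5.60 and 5.47). Anxa1 read 6.98, 10.13 and 6.87 (3.34), although its second counted probe set gave 0.09. Lgals1, the galactose-binding galectin-1, read 9.96, 10.96 and 7.96 (1.39). Of 19 counted members of this list 4 were higher and 1 was lower, against 0.678% and 1.78% of all counted genes. The lower one was S100a13 (7.71, 6.63 and 6.12, -1.14). The median was 0.21, and Anxa2, an abundant member, read 10.48 on WT and 10.16 on MI (0.06).

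Mesenchymal genes followed the same pattern in a minority of the list. Of 24 counted members 6 were at least 2-fold higher and 1 was lower, against 0.678% and 1.78% of all counted genes. The list median was 0.34. Vim, the intermediate filament of mesenchymal cells, read 8.05 on WT, 10.89 on MI and 7.75 on RQ (3.14), and its other probe sets gave 2.79 to 3.75. The small proteoglycans Dcn (6.57, 9.54 and 6.48, 3.07) and Bgn (7.14, 9.63 and 6.60, 2.65) coat collagen fibres. Bgn gave 0.50 and 0.89 at its other counted probe sets. The fibrillar collagen chain Col1a2 read 6.39, 8.03 and 6.39 (1.58), and the growth factor binding protein Igfbp4 read 8.93, 9.80 and 8.26 (1.18, with probe sets down to 0.19). All 5 were highest on MI. Ccn2, a matricellular protein also known as connective tissue growth factor, was lower, at 8.51, 6.76 and 6.08 (-1.74).

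Several other fibroblast markers stayed near background on MI. Col1a1, the partner chain of Col1a2, read 5.97 on WT, 6.43 on MI and 5.71 on RQ and lay below the filter. Col3a1 read 6.27, 6.35 and 6.35, Lum read 5.93, 6.12 and 5.90, and Thy1 read 6.24, 6.25 and 6.21. Mmp3 (5.86, 5.92 and 5.77) and Twist1 (5.62, 5.80 and 5.66) were equally dim. Some counted members short of the limit read higher on MI, such as Col6a2 (7.43 on WT and 7.90 on MI, 0.49), Col6a1 (0.45) and Timp1 (0.42). Of the 24 counted members 16 lay above 0 and 8 below it. Over the counted list the mean level was 7.26 on WT, 7.87 on MI and 6.92 on RQ, and 13 members lay at least 1 above the filter on MI, 9 on WT and 6 on RQ. Feeder cells, which are usually fibroblasts, were removed before the bodies were formed, and the part of any that remained in these values was not tested.

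**Figure D4:**
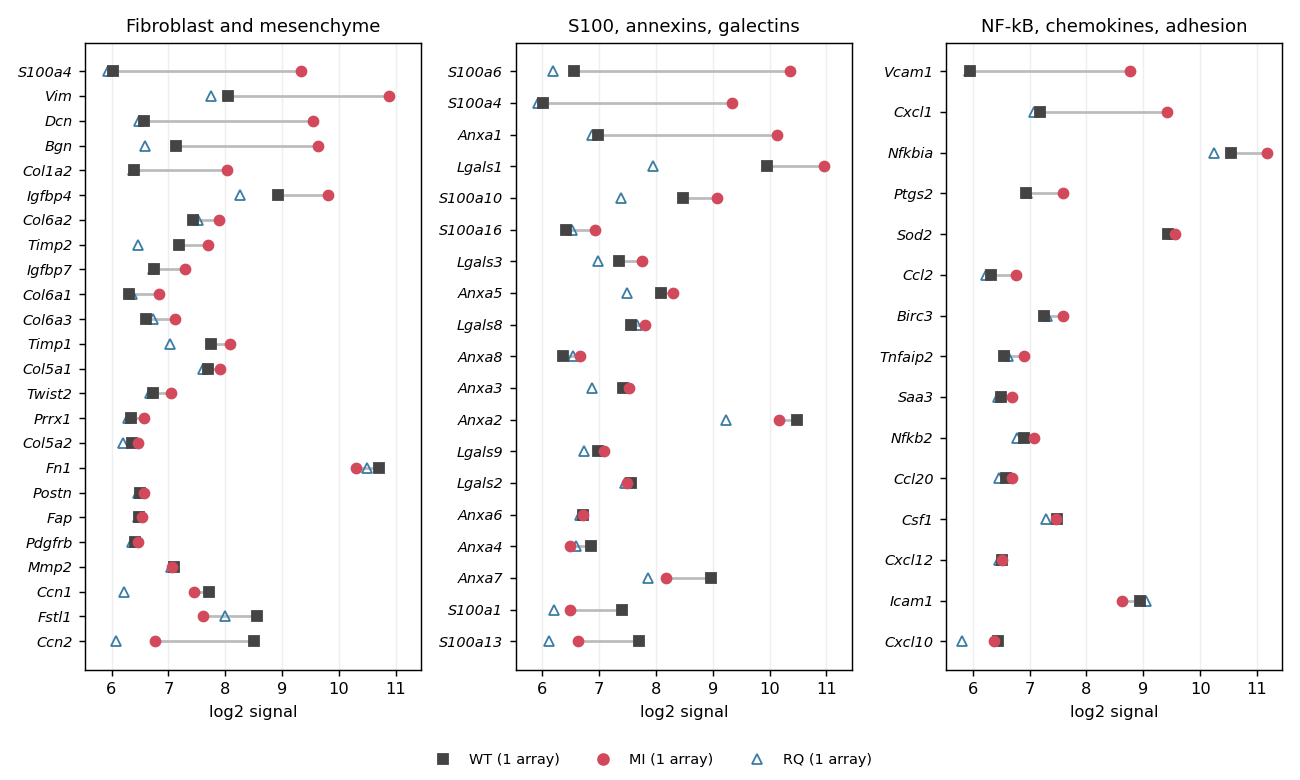
The log2 signal of every counted member of 3 gene lists (fibroblast and mesenchyme; S100 proteins, annexins and galectins; NF-kB targets, chemokines and adhesion genes) is drawn on the WT (square), MI (circle) and RQ (triangle) arrays, 1 array each. A few genes at the top of each panel, such as Vim (8.05 on WT and 10.89 on MI) and Vcam1 (5.96 and 8.77), are far higher on MI, while most members lie close together on the 3 arrays.

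Surface and secreted genes that mesenchymal cells use were high on MI in the same way, although the lists they come from were mixed. Cd44, the receptor for hyaluronan, read 6.10 on WT, 9.37 on MI and 5.98 on RQ (3.31), and its other counted probe set gave 2.82. It was the only higher gene of 17 counted matrix receptors, where the proteoglycan Gpc3 was lower (-1.29). The hormone-processing enzyme Cpe read 6.90, 9.48 and 6.61 (2.72, with 0.48 at its other counted probe set), and the membrane protein Emp1 read 6.08, 7.98 and 5.99 (1.82). A further list, of surface and hormone-processing genes of mesenchyme, holds Cpe. Of its 17 counted genes 2 were higher and 2 were lower, the latter Srgn and the Axl ligand Gas6 (-1.06). Tm4sf1, a surface protein that crosses the membrane several times, read 6.02, 8.06 and 5.92 (1.97). Actin-binding and smooth muscle genes did not share the direction: 0 of 28 were higher and 5 were lower, namely Cnn2 (9.32 on WT and 7.38 on MI, -1.78), Tagln (8.01 and 6.77, -1.27), Actn1 (-1.17, but near 0 at another probe set), Flna (-1.16) and Csrp1 (-1.12), with a median of -0.09.

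Genes that NF-kB is known to switch on were higher in part. NF-kB is a transcription factor held in the cytoplasm by the inhibitor encoded by Nfkbia, itself one of its targets. Of 15 counted genes 3 were at least 2-fold higher and 0 were lower, against 0.678% and 1.78% of all genes, and the median was 0.27. Vcam1, an adhesion molecule for leukocytes, read 5.96 on WT, 8.77 on MI and 5.94 on RQ (2.78), with 0.17 and 0.92 at its other counted probe sets. It reached the filter through MI alone, so it could be counted only because it was high there. Cxcl1, a chemokine that attracts neutrophils, read 7.18, 9.41 and 7.08 (2.39), and all 3 of its probe sets lay between 1.62 and 4.42. Nfkbia read 10.54, 11.18 and 10.24 (1.04), which was the highest of its 5 counted probe sets, and the lowest gave -0.16. The mitochondrial superoxide dismutase Sod2 read 9.44, 9.55 and 9.52 (0.42). The prostaglandin synthase Ptgs2 was higher by less than the limit, at 6.93, 7.59 and 6.96 (0.61), whereas Icam1, another adhesion gene, read 8.94 on WT and 8.63 on MI.

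Interferon and MHC class I genes were mixed. Of 19 counted genes 3 were higher and 1 was lower, against 0.678% and 1.78% of all counted genes. The list median was 0.06. B2m, which encodes the invariant chain of class I molecules, read 9.70 on WT, 10.54 on MI and 7.14 on RQ (1.21). Ifitm3, which restricts the entry of viruses and is also expressed in early germ cells, read 8.95, 10.26 and 8.90 (1.63), while its relative Ifitm1 read 10.65, 8.50 and 10.92 (-1.82). The family members thus differed in opposite directions. Usp18, which removes the ubiquitin-like protein ISG15, read 5.79, 7.03 and 5.81 (1.15). Oas1a (0.93) and Ifi35 (0.96) fell just short of the limit, and Tap1 and Psmb9, which supply peptides to MHC class I, gave -0.03 each.

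Promoters of these genes were read to show where the letters of a classical NF-kB motif lie, because some members of both lists were past the limit on MI. The letters searched were GGGANTTTC on both strands within the 250 bases before each start, and they occur in 0.941% of 32851 RefSeq promoters. Of 31 counted genes of the NF-kB and interferon lists with a promoter entry, 5 hold a match: Csf1, Cxcl1, Nfkb2, Nfkbia and B2m. A match is present in 3 of the 4 that were at least 2-fold higher on MI and have an entry, and the 3 are printed here in the direction of transcription (RefSeq, GRCm38.p6), with the match in capitals.
Cxcl1: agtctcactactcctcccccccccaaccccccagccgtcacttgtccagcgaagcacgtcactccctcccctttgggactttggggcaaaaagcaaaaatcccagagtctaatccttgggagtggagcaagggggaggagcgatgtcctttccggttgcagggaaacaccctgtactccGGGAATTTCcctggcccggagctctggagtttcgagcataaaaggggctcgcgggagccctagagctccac
Nfkbia: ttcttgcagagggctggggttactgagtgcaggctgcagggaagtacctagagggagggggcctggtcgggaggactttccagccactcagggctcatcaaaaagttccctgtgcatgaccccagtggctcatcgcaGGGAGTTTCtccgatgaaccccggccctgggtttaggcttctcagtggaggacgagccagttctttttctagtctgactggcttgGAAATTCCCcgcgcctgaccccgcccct
B2m: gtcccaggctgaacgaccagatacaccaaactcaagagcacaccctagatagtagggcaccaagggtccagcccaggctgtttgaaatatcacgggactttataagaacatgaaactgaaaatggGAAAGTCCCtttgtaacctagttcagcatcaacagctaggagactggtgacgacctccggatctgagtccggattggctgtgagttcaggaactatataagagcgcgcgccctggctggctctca
These windows are chr5:90890995-90891244 (plus strand) for Cxcl1, chr12:55492648-55492897 (minus strand) for Nfkbia and chr2:122147437-122147686 (plus strand) for B2m. The match begins 71 bases before the start in Cxcl1 and 125 in B2m, and the farther of 2 in Nfkbia begins 113 before. The spelling was chosen after the values were seen, and looser spellings occur more widely, such as GGGNNTTTC, which includes it, in 3.72% of promoters. Csf1 and Nfkb2 hold a match too, and their corrected differences were -0.03 and 0.09. A match describes letters and not the binding of a factor.

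Naive pluripotency genes, which mark the ground state of mouse stem cells, were higher on MI in part. Of 15 counted members 4 were at least 2-fold higher and 0 were lower, against 0.678% and 1.78% of all counted genes. On the list 11 members lay above 0, and the list median was 0.33. Dppa3, a maternal factor that shields DNA methylation marks and is shared with early germ cells, read 7.88 on WT, 9.74 on MI and 8.58 on RQ (2.09). Nanog, a central transcription factor of the naive state, read 10.27, 11.41 and 11.94 (1.55). Klf4 read 8.81, 9.91 and 10.05 (1.40), and Zfp42, also called Rex1, read 10.04, 10.67 and 11.97 (1.01). All 4 were lowest on WT, and among them only Dppa3 was higher on MI than on RQ. The factor Klf2 read 9.31 on WT, 8.75 on MI and 10.99 on RQ, so it did not follow.

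**Figure D5:**
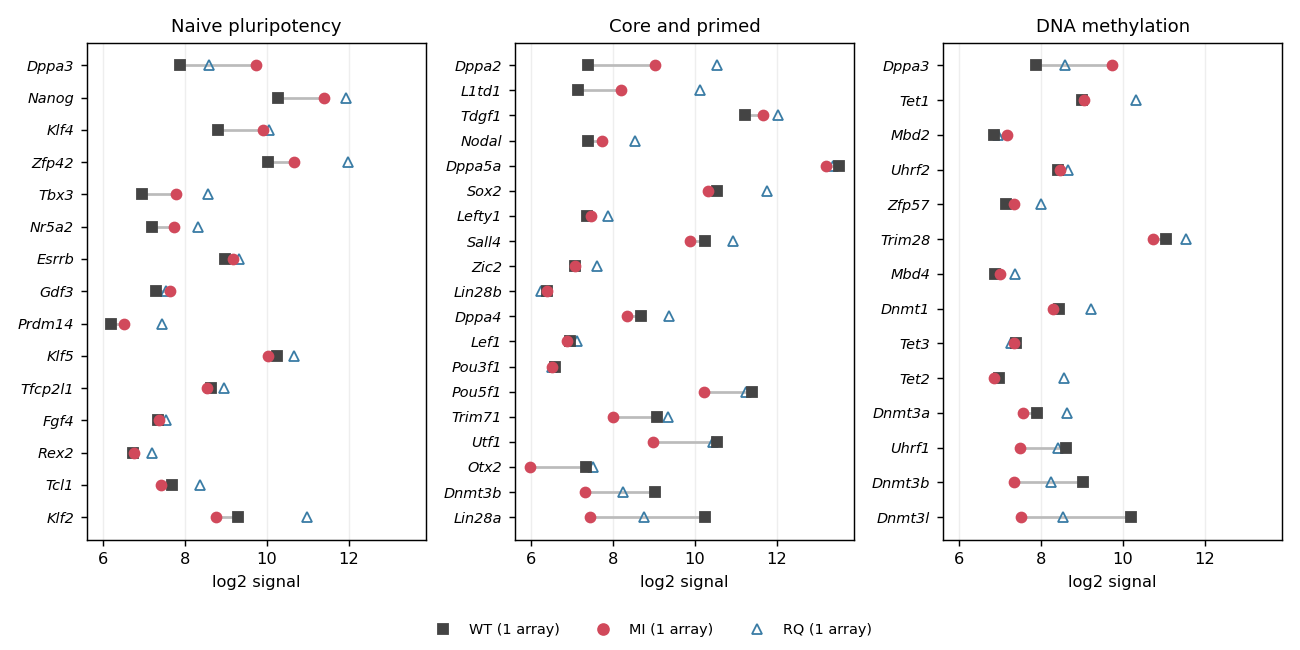
The log2 signal of every counted member of 3 gene lists (naive pluripotency, core and primed pluripotency, and DNA methylation) is drawn on the WT (square), MI (circle) and RQ (triangle) arrays, 1 array each. Dppa3 and Nanog stand above WT on MI, while Lin28a (10.24 on WT and 7.44 on MI) and Dnmt3l (10.20 and 7.52) stand far below it.

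Genes of the core and primed states differed in both directions. Lin28a, an RNA-binding protein that blocks let-7 maturation, read 10.24 on WT, 7.44 on MI and 8.77 on RQ (-2.57), and its second probe set gave -1.80. Otx2, a homeobox factor that drives the exit from the naive state, read 7.35, 5.98 and 7.52 (-1.46). Utf1, a chromatin factor of stem cells, read 10.53, 8.97 and 10.44 (-1.22). Otx2 and Utf1 were low on MI alone. Pou5f1, or Oct4, read 11.39, 10.21 and 11.25 (-0.77), and Sox2 read 10.54, 10.32 and 11.77 (0.17). Of 19 counted members of the core and primed list 4 were lower and 2 were higher, against 1.78% and 0.678% of all counted genes. The list median was -0.10. The higher ones were Dppa2, which binds promoters of early embryonic genes (7.38, 9.02 and 10.55, 1.77), and L1td1, an RNA-binding protein (7.15, 8.20 and 10.12, 1.08).

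DNA methylation genes held 3 lower members, of which Dnmt3l and Dnmt3b serve de novo methylation. Dnmt3l, the cofactor of the de novo enzymes, read 10.20 on WT, 7.52 on MI and 8.55 on RQ (-2.45). The enzyme Dnmt3b read 9.03, 7.33 and 8.25 (-1.57), and Uhrf1, which recruits the maintenance enzyme, read 8.61, 7.50 and 8.42 (-1.001). The second de novo enzyme, Dnmt3a, read 7.90, 7.56 and 8.65 (-0.30). The maintenance enzyme itself, Dnmt1, read 8.43 and 8.31 on WT and MI, and Tet1, which oxidises methylcytosine, read 9.01 and 9.05. Of the 14 counted genes 1, Dppa3, was higher. Germline genes were higher in 3 of 17 cases and lower in 0, against 0.678% and 1.78% of all counted genes. On the germline list 9 lay above 0 and 8 below it, with a median of 0.01. Tex19.1, which restrains retrotransposons, read 7.21, 9.51 and 9.56 (2.46), and Dazl, an RNA-binding protein of germ cells, read 8.90, 10.45 and 10.26 (1.88, with 2.23 at its other probe set). Slc25a31, a testis form of the ADP/ATP carrier, read 6.69, 7.80 and 7.39 (1.06). These 3 germline genes were lowest on WT, whereas the germ cell helicase Ddx4 read 6.91, 6.33 and 6.85 (-0.67). Usp17la, of a family of near-identical deubiquitinases whose copies the probes may not separate, read 7.62, 9.55 and 8.97 (2.14).

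Growth control genes held a few large differences among many small ones. Ccnd1, the G1 cyclin that partners CDK4 and CDK6, read 6.83 on WT, 9.52 on MI and 7.28 on RQ (2.82), and its other probe sets gave at least 1.38. The cyclin-dependent kinase inhibitor Cdkn1b read 7.73, 6.46 and 6.85 (-1.33), but its other counted probe set gave 0.26. No other of the 19 counted G1 genes was past the limit. Imprinted genes were split, with 2 of 19 higher and 2 lower, against 0.678% and 1.78% of all counted genes. Dlk1, a paternally expressed Notch-like ligand, read 6.79, 9.93 and 6.54 (3.30), whereas the maternally expressed RNA Meg3 of the same cluster read 10.79, 9.32 and 8.52 (-1.10). Probe sets of Meg3 ranged from -1.72 to 0.03. The zinc finger gene Plagl1 read 7.44, 8.79 and 7.92 (1.47) and gave 0.07 at its other counted probe set. The adaptor Grb10 read 8.32, 7.23 and 7.40 (-1.05). Dlk1 rests on 1 probe set that can read more than 1 transcript, and the other, which lies below the filter, gave 0.10.

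The signalling and chromatin lists given here had medians between -0.04 and 0.12 and at most 1 gene past the limit on each side. In lists this short, 1 gene exceeds the shares over all counted genes (0.678% higher and 1.78% lower). Nodal, TGF-beta and BMP genes had 0 of 19 past the limit, with Tdgf1, the Nodal coreceptor, at 11.22 on WT and 11.68 on MI. Wnt pathway genes had 1 of 13 higher, Ccnd1, and 1 lower, the receptor Fzd7 (8.75 on WT and 7.23 on MI, -1.43). Among 20 FGF-ERK genes the feedback inhibitor Spred2 was higher (7.24 and 8.32, 1.13, with other probe sets from 0.02 to 0.20) and the immediate early gene Fos was lower (7.70 and 6.55, -1.22). Of 21 Polycomb genes Mtf2 was higher (10.15 and 10.81, 1.05, with other probe sets down to 0.20) and Phc1 was lower (10.90 and 9.41, -1.12). Histone deacetylases and sirtuins had 0 of 13 past the limit, and the lowest was Hdac3, at 7.28 and 6.59 (-0.77). Fos was also the only one of 19 counted literature targets of miR-155 past the limit, and the host gene Mir155hg lay below the filter at 5.36 on WT and 5.34 on MI.

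No counted gene of the pathway in which BRCA1 acts was past the limit. Mouse Brca1 read 6.81 on WT, 6.96 on MI and 6.80 on RQ (0.06) at the probe set used here. Its other counted probe sets read 6.88, 6.36 and 6.80 (-0.61) and 6.37, 6.28 and 6.40 (-0.17), so they lay on the other side of 0. Whether these mouse probe sets also read the human transcript was not tested. Among 20 counted genes of homologous recombination and BRCA1 partners 0 were past the limit in either direction, with a median of 0.06. Over all counted genes 0.678% were higher and 1.78% lower, so few or none would be past it in a list of 20. The recombination mediator Brca2 was the highest, at 7.72, 8.25 and 8.55 (0.62). The checkpoint protein gene Trp53bp1 read 7.84, 8.26 and 7.23 (0.53), the helicase Blm read 8.26, 7.70 and 8.79 (-0.47), and the BRCA1 partner Uimc1 read 8.45, 8.70 and 8.78 (0.45). The p53 list likewise had 0 of 22 past the limit, with 11 members above 0, 11 below it and a median of -0.02. Its 5 members that differed most were all below 0, namely Dcxr (-0.85), the mTOR inhibitor Ddit4 (11.78 on WT and 10.53 on MI, -0.82), the pro-apoptotic Bbc3, or Puma (8.83 and 8.13, -0.52), Zmat3 (-0.52) and Ei24 (-0.49). Next by size came Trp53inp1 (0.49) and Ccng1 (0.46), both above 0. The array gives RNA levels alone, so protein amount and repair activity were not measured.

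Genes of DNA replication and mitosis differed little, and their medians lay on opposite sides of 0 only after the level correction. Replication genes had 1 of 29 past the limit, the helicase subunit Gins1 (6.92 on WT, 8.25 on MI and 7.79 on RQ, 1.34), and a median of 0.17, which turned to -0.10 without the level correction. Both large and small subunits of ribonucleotide reductase, which makes deoxynucleotides, were higher by less than the limit, at 8.66 on WT and 9.13 on MI for Rrm1 (0.72) and 10.30 and 10.73 for Rrm2 (0.82). Mitotic genes had 0 of 29 past the limit and 19 below 0, with a median of -0.19 (-0.50 without the correction). The spindle midzone protein Prc1 was the lowest, at 8.66, 7.71 and 8.50 (-0.82), followed by Nusap1 (9.47, 8.42 and 9.60, -0.80). The other counted probe set of Nusap1 gave 0.12.

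Genes of cholesterol synthesis were mostly lower on MI by small amounts, with 18 of 26 counted genes below 0. Insig1, a sterol-regulated brake on cholesterol synthesis, read 9.75 on WT, 7.88 on MI and 7.98 on RQ (-1.64), and with the sterol oxidase Msmo1 (-1.01) it made 2 genes past the limit (median -0.29). The sterol carrier Stard4 (-0.92) and the transcription factor Srebf2 (-0.88, with -1.33 at its other probe set) came next, and Fdps gave -0.74 and, at its other probe set, 0.26. Glycolysis and hypoxia genes had 17 of 24 below 0 and 2 past the limit, the phosphofructokinase Pfkl (10.83, 9.27 and 10.32, -1.20) and the stress gene Ndrg1 (9.68, 8.29 and 8.71, -1.14). Xbp1, a transcription factor of the unfolded protein response, was the only one of 28 amino acid and unfolded protein genes past the limit (8.57, 9.47 and 9.61, 1.16). Its 4 counted probe sets ranged from 0.13 to 1.16. Heat shock genes went both ways, with Hspa4 higher (9.92, 10.75 and 11.002, 1.22) and the inducible chaperone Hspa1a lower (8.02, 6.69 and 6.46, -1.36). Probe sets of Hspa4 ranged from -0.03 to 1.22. Hspa1a rests on 1 probe set, and its close relative Hspa1b gave 0.43 to 0.52 at 3 counted probe sets. Gpx3 and the glutathione transferase Gstm1 (8.73, 7.38 and 7.59, -1.24) were the lower 2 of 23 oxidative stress genes. Counted probe sets of Gstm1 ranged from -1.43 to -0.055. Over all counted genes 1.78% were lower, and 6.30% of those with a mean between 9 and 10, a share to which bright lists such as glycolysis and oxidative stress are to be held.

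Housekeeping lists show what the level correction does. The 17 counted ribosomal protein genes had a median of 0.05 after correction and -0.44 before it. At the probe set used here 0 were past the limit, but other counted probe sets of Rps3 (-1.60), Rps24 (-1.33) and Rpl22 (-1.23) were past it downward. Mitochondrial respiration genes had medians of 0.07 and -0.37, with 1 of 23 higher, cytochrome c (Cycs, 1.08), and 1 lower, the succinate dehydrogenase subunit Sdhc (-1.07). The 4 counted probe sets of Cycs ranged from 0.11 to 1.08. Proteasome and splicing genes had medians of 0.05 and -0.21 and 0 of 21 past the limit at the probe set used here. Another counted probe set of the splicing factor Srsf3 gave -1.345. Each of these medians thus changed sign with the correction, as did that of the heat shock genes (0.15 and -0.25). The Actb and Gapdh control probe sets for the 3′ and 5′ ends differed by 0.78 and 0.05 on MI, and by 0.64 and 0.12 on WT.

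Lists of later lineages held no counted gene past the limit, which 0.678% of all counted genes passed upward and 1.78% downward. Cd34, of the blood and endothelium list, gave 1.03 but lay below the filter. None of the counted genes of primitive streak (6), Hox and Cdx (7), blood and endothelium (11), heart and paraxial mesoderm (18), neural cells and neural crest (13) or trophoblast (7) was at least 2-fold higher or lower, and the list medians lay between 0.01 and 0.18. The brightest counted blood or endothelial gene reached 7.26 on MI, and the brightest heart or paraxial mesoderm gene 7.52. At such levels a difference is held down by background signal. A few members were brighter, such as Hoxa5, a patterning gene (9.06 on WT and 9.29 on MI, 0.51), the Nodal cofactor Foxh1 (8.50 and 8.44, 0.12), and the trophoblast genes Tfap2c (8.39 and 8.71, 0.51) and Esx1 (7.94 and 8.49, 0.68). Among the 13 neural genes 8 lay at least 1 above the filter on MI and 4 on WT. The intermediate filament Nes, found in neural progenitors among other cells, read 7.97 on WT, 8.22 on MI and 7.81 on RQ.

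Of the Y-linked genes named here, those brightest on WT were lower on MI, and the others were dim on every array. Eif2s3y, a translation factor gene of the Y chromosome, read 8.56 on WT, 6.31 on MI and 5.30 on RQ (-2.27), and its other probe set, below the filter, gave -0.27. Uba1y, a Y-linked ubiquitin-activating enzyme singled out after its values were seen, read 7.76, 6.43 and 5.59 (-1.40, with -0.79 at its other counted probe set). Both were highest on WT and lowest on RQ. Of the 3 counted genes of the Y and Xist list 1 was past the limit. Uty, the other counted gene of the Y chromosome on it, read 6.70, 7.001 and 6.76 (0.21), at the 1 of its 4 probe sets that was counted. Kdm5d lay below the filter on every array (5.87, 6.16 and 5.98), and Xist, the X-inactivation RNA, read 6.88, 7.10 and 6.97. The part of a difference between the lines other than the BRCA1 allele in the values above was not tested.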

How the data were processed

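Total RNA of day 7 bodies was labelled as biotinylated cRNA and hybridized to Affymetrix mouse arrays, 1 per genotype, per the labels. The deposited values are log2 signals (45101 probe sets on each array). The submitters' processing notes name Partek and RMA and give no versions. RMA subtracts background, makes array distributions alike and summarises probes. It is not stated in the sources used here whether further arrays entered the normalization, and detection calls were not used here.

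The supplied platform annotation gave names: 34945 with 1 symbol were used, 932 with several and 9160 with none were left out, and 64 control probe sets were kept apart. For the 9010 genes with several probe sets, the brightest one by its mean over the 3 arrays was read. The MI minus WT difference was corrected by a lowess curve (statsmodels 0.14.6, span 0.3, 3 robustness iterations) on the mean of WT and MI over all probe sets other than controls. With 1 array per group no test was run and no error between cultures can be given. Differences against dim signals understate ratios. The method was tested on simulated data. A total of 49 gene lists with 1091 different symbols was used. On the arrays 1000 symbols were found, 12 of them through a synonym, and 825 were counted.

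The members and lists were chosen with earlier results of these data known. Genes named are Brca1, the 20 highest and 20 lowest whose other counted probe sets differ the same way (Emb was left out by this), and members of each list from among its 5 with the greatest difference or past 2-fold. Not all of these are named, and other members were chosen for their role after their values were seen. Promoters came from RefSeq (GRCm38.p6). 1 gene of the homologous recombination list is not reported here.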

Additional observations from a re-analysis of the deposited data

How the results depend on the processing

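With 82 genes higher and 215 lower as reported, centring arrays on their medians gave 53 and 382, a 1.5-fold limit gave 345 and 726, a 3-fold limit gave 27 and 54, and averaging each gene's probe sets gave 51 and 151. Quantile normalization again gave 106 higher and 192 lower, with 82 and 192 shared. Of 114 named genes past the limit, all kept their direction under each level correction tried, and between 101 and 113 stayed past it; 85 did so with the mean of probe sets and 85 of 94 without probe sets that can read several transcripts. The endocytic median of -0.68 became -1.14 with a stricter filter and -1.11 as a mean. Means in place of medians gave -0.79 for keratins and junctions, 0.64 for fibroblast genes and 0.60 for S100 proteins, annexins and galectins, and turned secreted binding proteins and protease inhibitors from 0.30 to -0.081. The lysosomal protease median of -0.64 was -0.95 without correction and -1.01 with median centring. The cause of these shifts was not tested. No paired analysis was possible because each genotype has 1 array.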

Other observations

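The genes in these paragraphs stand on none of the gene lists and were chosen after their values were seen. Among genes higher on MI, Hmga2, a chromatin protein of proliferating mesenchyme, read 6.59 on WT, 8.35 on MI and 6.18 on RQ (1.75 after level correction, with 1.38 at its other probe set). Socs3, the feedback inhibitor of cytokine signalling through STAT3, read 8.67, 9.89 and 8.47 (1.51), and its other counted probe sets gave 1.76 and 1.80. The interferon-inducible genes Ifi27 (7.43, 8.93 and 7.45, 1.63) and Rtp4 (6.65, 8.04 and 6.57, 1.35) and the matrix protein Ecm1 (6.65, 8.02 and 6.45, 1.33) were likewise high on MI alone. Fbxo15, a stem cell target of Oct4 and Sox2, read 8.93, 10.24 and 10.43 (1.63), and Ak4, a mitochondrial adenylate kinase, read 8.52, 9.95 and 10.22 (1.71). Both were high on each mutant array.

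Among genes lower on MI, Tfpi, an inhibitor of tissue factor, read 10.68 on WT, 8.52 on MI and 8.71 on RQ (-1.84 at both of its counted probe sets). Glul, which makes glutamine, read 10.57, 7.98 and 7.76 (-2.30), and Apoc1, an apolipoprotein gene, read 8.94, 6.74 and 6.97 (-2.14). The histone genes H1f2 (9.31, 7.51 and 6.69, -1.63) and H3f3a (8.05, 6.40 and 5.96, -1.70) were lower as well. The transcription factor Epas1 was low on MI alone, at 7.47, 6.09 and 7.43 (-1.46), although its other probe set gave -0.33.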
